A study of Mus musculus with 27 samples.

Results

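The libraries compared were 5 of Tri PD1+KLRG1- cells and 5 of Tri PD1-KLRG1- cells, 10 of the 27 bulk RNA-seq libraries in the series. They were picked by sample title alone, but the comparison itself was chosen with earlier results of these data known. All were CD8+ T cells taken from MC38 tumours in mice, MC38 being a mouse colon adenocarcinoma line. Tumours were digested, and live CD8+ cells were sorted by flow cytometry on their surface PD-1 and KLRG1. The Tri PD1+KLRG1- group was positive for PD-1 and negative for KLRG1, and the Tri PD1-KLRG1- group was negative for both. Both groups came from mice given Tri, a combination immunotherapy (TCT in the series text). The sources used here name neither its agents nor the strain, sex and age of the mice. Other groups were used as stated where they appear: Tri PD1+KLRG1+ (5 libraries), Tri PD1-KLRG1+ (4 libraries) and Iso PD1-KLRG1- (4 libraries, from mice given an isotype control). The question was which genes distinguish the PD-1 positive from the PD-1 negative cells of treated tumours when neither has the late effector marker KLRG1.

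PD-1, the product of Pdcd1, is an inhibitory receptor that T cells put on their surface after antigen recognition and keep when antigen persists. CD8+ T cells that meet antigen over long periods in tumours are known to raise further inhibitory receptors and the transcription factor TOX, and to lose the TCF1 and LEF1 factors of memory cells. Tissue-retained T cells typically switch off KLF2 and its target S1PR1, the receptor by which lymphocytes follow sphingosine 1-phosphate out of tissue into lymph and blood. Granzymes and perforin are the granule proteins with which such cells kill their targets.

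Library totals ran from 12090152 to 21204098 counts in PD1+ libraries and from 11594027 to 16709139 in PD1- libraries. Replicate 5 of the PD1- libraries stood apart. It held 10261 genes when every library was thinned to 8586184 counts, while the other 4 held at least 12493, and 3.62% of the 7077 well-expressed genes (median of at least 20 CPM) had no count in it, where the PD1+ libraries lacked at most 0.127%. CPM are counts scaled to a common library size with TMM factors. Results that turn on that library are given with and without it. The labels do not say that each library came from a separate mouse, so p-values measure the spread between these samples, which may be in part technical.

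Sort and marker genes followed the labels. Pdcd1 (ENSMUSG00000026285) was at 1291, 1114, 1073, 1089 and 1628 CPM in the PD1+ libraries (replicates 1 to 5, as in all series of values below), against 151, 76.6, 151, 109 and 107 CPM in the PD1- libraries. The log2 fold change of PD1+ over PD1- was 3.36 ± 0.31 (SE), which checks the gate and is no finding. Klrg1 was low in both groups, as the shared gate requires. It was at 7.93, 4.60, 8.07, 3.42 and 1.46 CPM in PD1+ libraries, against 40.1, 20.5, 8.56, 10.3 and 19.2 CPM in PD1- libraries, and at 91.8 ± 43.5 CPM (SD, n = 5) in Tri PD1+KLRG1+ and 251 ± 69.3 CPM (n = 4) in Tri PD1-KLRG1+. Within the KLRG1- gate every PD1+ library was thus below every PD1- library for Klrg1 (-2.05 ± 0.39, adjusted p = 0.00315). Klrg1 missed the threshold with all 27 libraries in the fit (0.177) and with only the 10 libraries compared (0.083). Cd8a, a chain of the CD8 co-receptor, was at least 1313 CPM in each of the 10 libraries and Cd3e, a chain of the antigen-receptor complex, at least 998 CPM.

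In all, 482 of 13288 genes tested differed between PD1+ and PD1- KLRG1- cells at an adjusted p under 0.05 (edgeR quasi-likelihood test), which is 3.63% of the genes. Of these, 228 rose in PD1+ cells (1.72%) and 254 fell (1.91%), and the remaining text says "rose", "fell" or "called" of such genes alone. The 5 libraries of each group did not overlap for 201 of the genes that rose and 219 of those that fell; over all genes tested the groups did not overlap in 8.95%, 5.37% with PD1+ higher and 3.57% with PD1+ lower. The median log2 fold change over all genes was 0.06. The shares of 1.72% that rose and 1.91% that fell are the background for the list counts below. A list with few calls is no result about its members. The descriptions of replicates 4 and 5 carry an RNA-number suffix, so the libraries fall into 2 name series. Within the first alone (3 against 3) 175 genes were called and within the second alone (2 against 2) 12 were. The number of calls also changed with the libraries in the fit. It was 219 with all 27 libraries, 800 with the 10 libraries alone, 770 without the 5 Tri PD1+KLRG1+ libraries and 451 without replicate 5 of the PD1- libraries.

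Beyond Pdcd1 itself, 4 inhibitory and 3 costimulatory receptors rose in the PD1+ cells. Tnfrsf9 (ENSMUSG00000028965), the costimulatory receptor 4-1BB that appears on antigen-stimulated CD8+ T cells, was at 1699, 1337, 1498, 1274 and 807 CPM in PD1+ libraries, against 214, 218, 160, 227 and 228 CPM in PD1- libraries. The groups were far apart, and the log2 fold change was 2.64 ± 0.17 (adjusted p = 8.14e-09), with 2.94 in the first name series and 2.20 in the second. Lag3, an inhibitory receptor for MHC class II, was at 79.7, 80.9, 124, 84.5 and 98.5 CPM in PD1+ libraries, against 10.6, 9.06, 9.89, 7.42 and 19.5 CPM in PD1- libraries (3.05 ± 0.41, adjusted p = 0.000108). Havcr2, the gene of the inhibitory receptor TIM-3, was at 259, 257, 249, 196 and 394 CPM in PD1+ libraries, against 86.4, 68.4, 99.7, 64.3 and 71.4 CPM in PD1- libraries (1.80 ± 0.22, adjusted p = 3.25e-05). Neither gene had a PD1- library that reached a PD1+ library, but the Havcr2 call was lost with all 27 libraries in the fit (0.279).

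Of 14 inhibitory receptors tested, 4 rose and 1 fell, with a list median of 0.62. Besides Lag3 and Havcr2 the risers were Tigit, a receptor for nectins and PVR (1.24 ± 0.22, adjusted p = 0.00178), and Cd244a, the SLAM family receptor 2B4; the Tigit call was lost with all 27 libraries (0.338). Cd244a was at 198, 162, 216, 225 and 170 CPM in PD1+ libraries, against 10.4, 7.07, 11.3, 14 and 73.9 CPM in PD1- libraries, the highest PD1- value being that of replicate 5 (3.33 ± 0.64, adjusted p = 0.00343). The member that fell was Vsir, which encodes VISTA, a negative regulator of T cell activation (-0.90 ± 0.17, adjusted p = 0.00372). Ctla4, an inhibitory receptor for the B7 ligands, did not pass the test, at 57.8 to 126 CPM in PD1+ libraries and 15.4 to 85.0 CPM in PD1- libraries (0.97 ± 0.32, adjusted p = 0.108), though it did with a replicate block (0.037), by DESeq2 (0.0335) and by limma-voom (0.0294). Nor did Entpd1, the ectonucleotidase CD39 (0.79 ± 0.35, adjusted p = 0.328), pass it. Of 12 costimulatory receptors tested 3 rose and the list median was -0.12. Tnfrsf4, which encodes OX40, was at 317, 326, 229, 158 and 96.0 CPM in PD1+ libraries, against 5.40, 13.2, 3.0, 18.9 and 28.8 CPM in PD1- libraries (4.04 ± 0.57, adjusted p = 0.000188), and Tnfrsf18, which encodes GITR, rose by 1.03 ± 0.17 (adjusted p = 0.000922). Tnfrsf4 was not called with all 27 libraries (0.0926).

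**Figure D1:**
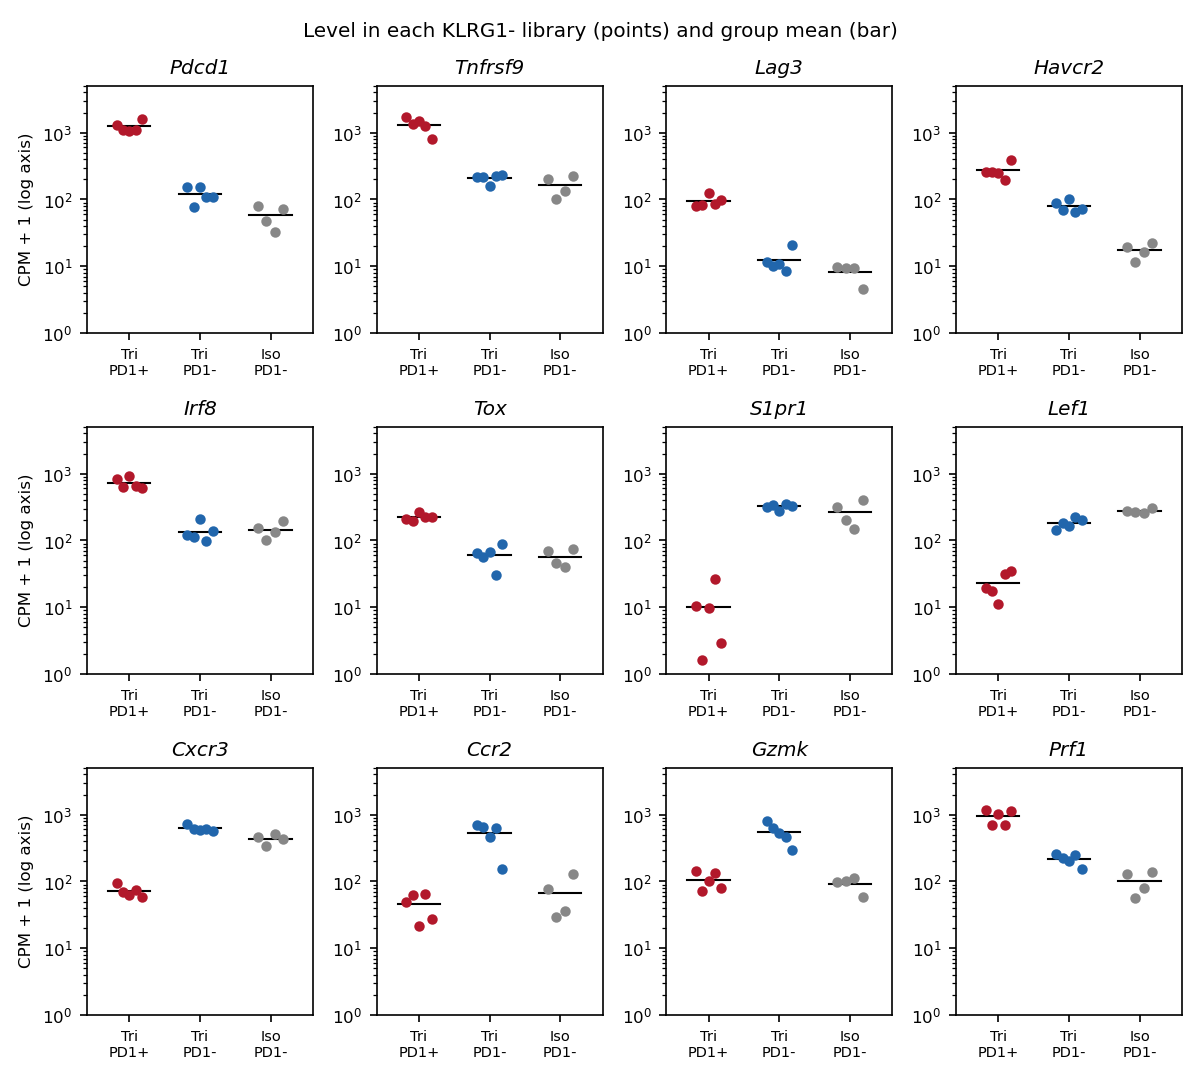
CPM plus 1 (log axis) of 12 genes in each KLRG1- library, with PD1+ Tri libraries in red, PD1- Tri libraries in blue and Iso PD1- libraries in grey; bars are group means. For each of the 12 genes the 5 PD1+ libraries lie wholly above or wholly below the 5 PD1- libraries.

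Of 14 transcription factors linked to lasting antigen-receptor signalling, 4 rose and none fell. Irf8, an interferon regulatory factor that antigen-receptor signalling induces in T cells, was at 822, 623, 907, 643 and 603 CPM in PD1+ libraries, against 119, 112, 206, 97.9 and 138 CPM in PD1- libraries (2.42 ± 0.19, adjusted p = 2.02e-07). Tox, the factor that maintains chronically stimulated CD8+ T cells, was at 208, 193, 268, 227 and 221 CPM in PD1+ libraries, against 64.6, 55.7, 66.0, 29.7 and 86.6 CPM in PD1- libraries (1.88 ± 0.28, adjusted p = 0.000293). In this list 13 members had a positive value and the median was 1.12. The other risers were Rbpj, the DNA-binding partner of Notch (1.91 ± 0.32, adjusted p = 0.00107), and Ikzf2, the gene of Helios (1.24 ± 0.30, adjusted p = 0.0219). The Ikzf2 call was lost without PD1+ replicate 3 (0.0672) or 4 (0.101) or PD1- replicate 1 (0.0812), 2 (0.0712) or 3 (0.0693). With all 27 libraries in the fit Tox (0.341) and Ikzf2 (0.779) were not called.

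Nr4a2, an orphan nuclear receptor induced by antigen-receptor signalling, was at 180, 146, 175, 196 and 137 CPM in PD1+ libraries, against 20.6, 15.3, 23.6, 28.1 and 211 CPM in PD1- libraries. The single high PD1- value was replicate 5. With it the gene was not called (1.76 ± 0.60, adjusted p = 0.128), and without it the adjusted p was 0.000159 at a log2 fold change of 2.93; DESeq2 called it with replicate 5 in place (0.0477). Among 10 effector transcription factors 2 rose and 1 fell (median -0.10). Bhlhe40, a factor that supports cytokine production and mitochondrial fitness in T cells, was at 907, 933, 843, 903 and 922 CPM in PD1+ libraries, against 472, 524, 567, 610 and 422 CPM in PD1- libraries (0.80 ± 0.14, adjusted p = 0.00192; 0.076 with all 27 libraries). Zeb2, a repressor that works with T-bet in terminal effector cells, rose by 1.68 ± 0.46 (adjusted p = 0.0467), but this call held in only 1 of the 10 fits that left out a library, the one without PD1- replicate 5, and reached 0.113 without PD1+ replicate 3 and 0.13 with all 27 libraries. With a replicate block Zeb2 was not called (0.0642). Hopx, a homeodomain protein of differentiated T cells, fell by 0.74 on the log2 scale (SE 0.14, adjusted p = 0.00307). Prdm1, which encodes BLIMP-1, was at 51.0 to 81.3 CPM in PD1+ libraries and 18.3 to 47.3 CPM in PD1- libraries without passing the test (1.20 ± 0.37, adjusted p = 0.0874), while it passed with the 10 libraries alone (0.00685) and by DESeq2 (0.0145).

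Of 16 memory and stem-like genes, 6 fell and none rose, 13 had a negative value and the median was -1.72. Lef1 (ENSMUSG00000027985), the partner of TCF1 in naive and memory T cells, was at 18.2, 16.3, 10.3, 30.8 and 34.4 CPM in PD1+ libraries, against 144, 183, 163, 221 and 203 CPM in PD1- libraries. It fell by 3.10 on the log2 scale (SE 0.33, adjusted p = 8.99e-06), with values of -3.45 and -2.70 within the first and second name series. Satb1, a chromatin organiser of T cells, was at 61.7, 105, 83.7, 115 and 117 CPM in PD1+ libraries, against 235, 223, 362, 283 and 351 CPM in PD1- libraries (-1.61 ± 0.26, adjusted p = 0.00066). Foxo1, which drives Klf2 and Il7r transcription in resting T cells, was at 70.1, 56.5, 75.3, 56.0 and 62.9 CPM in PD1+ libraries, against 286, 236, 228, 288 and 282 CPM in PD1- libraries (-2.02 ± 0.33, adjusted p = 0.000822). For all 3 genes the PD1+ libraries lay below every PD1- library, but Satb1 was not called with all 27 libraries (0.259).

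Slamf6, a surface marker of stem-like tumour-infiltrating CD8+ cells, also fell (-1.83 ± 0.37, adjusted p = 0.00531; 0.309 with all 27 libraries). Klf3, a Krüppel-like repressor, fell (-3.98 ± 1.07, adjusted p = 0.044), a call that was kept without PD1- replicate 5 but in no other fit that left out 1 library (up to 0.113, without PD1+ replicate 3). Tcf7, which encodes TCF1, was at 45.2, 107, 41.0, 80.2 and 21.8 CPM in PD1+ libraries, against 231, 168, 238, 233 and 528 CPM in PD1- libraries. These groups did not overlap, but Tcf7 did not pass the test (-2.20 ± 0.95, adjusted p = 0.313), while with the 10 libraries alone the adjusted p was 0.0116. Id3, a partner of E proteins in memory cells, was in the same position, with at most 4.64 CPM in a PD1+ library and at least 19.9 CPM in a PD1- library (-4.05 ± 1.15, adjusted p = 0.069, and 0.0396 with the 10 libraries alone). A member with a positive value, Bach2, a repressor of effector genes, was at 39.4, 64.5, 35.6, 27.5 and 28.4 CPM in PD1+ libraries, against 16.3, 5.96, 5.03, 0.288 and 0.121 CPM in PD1- libraries (2.95 ± 1.18, adjusted p = 0.241). It was called, higher, with the 10 libraries alone (3.87, adjusted p = 0.0296). The cytokine receptor gene Il7r overlapped between the groups, at 107 to 175 CPM in PD1+ libraries and 132 to 205 CPM in PD1- libraries (-0.30 ± 0.25, adjusted p = 0.867).

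Of 10 genes for leaving tissue and homing to lymph nodes and gut, 5 fell in the PD1+ cells and none of the others was called, with a median of -2.91. S1pr1 (ENSMUSG00000045092) was at 9.33, 0.613, 8.88, 25.1 and 1.88 CPM in PD1+ libraries, against 314, 342, 275, 347 and 332 CPM in PD1- libraries. It fell by 5.21 on the log2 scale (SE 0.77, adjusted p = 0.000278), with values of -5.62 and -4.66 in the first and second name series. Klf2, the transcription factor that switches S1pr1 on, was at 12.5, 0.613, 12.8, 16.3 and 1.74 CPM in PD1+ libraries, against 183, 108, 239, 116 and 110 CPM in PD1- libraries (-4.06 ± 0.91, adjusted p = 0.0124). In both genes replicates 2 and 5 of the PD1+ group had the lowest values.

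Itgb7, the beta 7 integrin chain of gut-homing lymphocytes, was at 140, 152, 107, 138 and 106 CPM in PD1+ libraries, against 957, 977, 1014, 880 and 994 CPM in PD1- libraries (-2.91 ± 0.30, adjusted p = 8.99e-06). Its partner chain Itga4, the alpha 4 integrin, fell by 1.13 on the log2 scale (SE 0.18, adjusted p = 0.000508). PD1- values of Itgb7 and Itga4 were all above the PD1+ values. Ccr7, the chemokine receptor of lymph node homing cells, was not called and overlapped, at 31.0 to 225 CPM in PD1+ libraries and 61.5 to 122 CPM in PD1- libraries (0.64 ± 0.45, adjusted p = 0.777).

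Of 12 residency genes 3 rose and 1 fell (median 0.49). Cxcr6, the receptor for CXCL16 on tissue-resident T cells, was at 2412, 1937, 2264, 2272 and 3324 CPM in PD1+ libraries, against 1670, 1660, 1504, 1637 and 1489 CPM in PD1- libraries (0.61 ± 0.12, adjusted p = 0.00594; 0.102 with all 27 libraries). Rgs16, a brake on G protein signalling from chemokine receptors, was at 457, 593, 442, 488 and 567 CPM in PD1+ libraries, against 24.5, 34.7, 7.41, 29.0 and 203 CPM in PD1- libraries (3.31 ± 0.61, adjusted p = 0.00249; 0.15 with all 27 libraries). Its relative Rgs2 rose by 1.19 ± 0.30 (adjusted p = 0.0309), a call kept in only 2 of the fits that left out 1 library, those without PD1+ replicate 2 or PD1- replicate 5 (up to 0.114, without PD1+ replicate 3), and lost with all 27 libraries (0.712). Cd69, whose protein holds S1PR1 inside the cell and which is used as an early activation and residency marker, was the member that fell. It was at 140, 117, 131, 138 and 95.3 CPM in PD1+ libraries, against 459, 374, 340, 295 and 208 CPM in PD1- libraries (-1.41 ± 0.18, adjusted p = 9.35e-05). Itgae, the integrin chain CD103 of epithelial resident cells, overlapped between groups, with 0.613 to 11.3 CPM in PD1+ libraries and 0 to 11.7 CPM in 4 PD1- libraries but 138 CPM in PD1- replicate 5.

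Of 7 inflammatory chemokine receptors tested, 3 fell and 1 rose; Ccr4 and Ccr6 were under the count minimum. Cxcr3, the receptor for interferon-induced chemokines on effector T cells, was at 92.6, 68.7, 62.3, 72.4 and 57.8 CPM in PD1+ libraries, against 736, 612, 591, 611 and 570 CPM in PD1- libraries (-3.14 ± 0.34, adjusted p = 1.05e-05). Ccr2, a receptor for CCL2, was at 48.8, 62.5, 20.8, 64.7 and 26.4 CPM in PD1+ libraries, against 709, 653, 462, 641 and 151 CPM in PD1- libraries (-3.53 ± 0.49, adjusted p = 0.000139). Cx3cr1, the fractalkine receptor, went the other way, at 180, 132, 162, 154 and 164 CPM in PD1+ libraries, against 60.2, 31.9, 48.5, 36.8 and 45.0 CPM in PD1- libraries (1.82 ± 0.37, adjusted p = 0.00593). The groups were apart in each of these genes. Ccr8, a receptor found on tissue T cells, was at 61.5 to 123 CPM in PD1+ libraries and 0.576 to 26.0 CPM in PD1- libraries, and was not called (adjusted p = 0.0852), but it was without PD1- replicate 5 (0.0116), with the 10 libraries alone (0.0237) and by DESeq2 (0.0194).

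**Figure D2:**
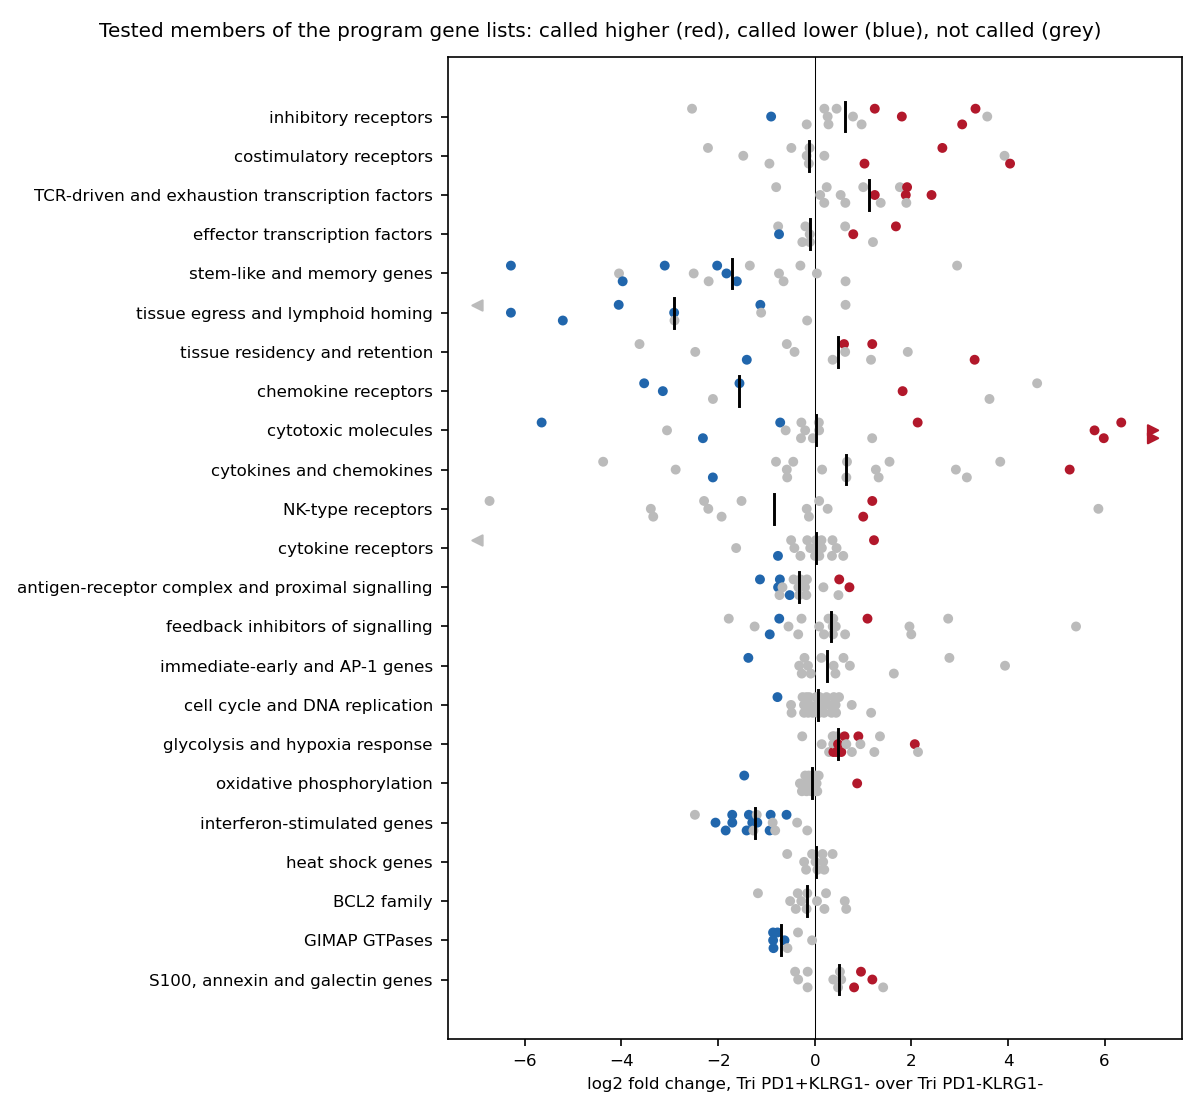
Log2 fold change of PD1+ over PD1- for each tested member of 23 gene lists, with genes called higher in red, called lower in blue and not called in grey; black bars are list medians, and triangles at the edges stand for values beyond 7 in size. Interferon-stimulated genes and GIMAP genes lie wholly below 0, and the cytotoxic list spreads widely to both sides.

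Cytotoxic genes split. Of 18 tested, 6 rose and 3 fell, with a median of 0.02. Setting the genes without a PD1- count to their bounds could not move this median, since they stayed the highest values. Those that rose were perforin and 5 granzymes of the clustered C-to-G type. Prf1, the pore-forming protein of cytotoxic granules, was at 1167, 702, 1009, 706 and 1121 CPM in PD1+ libraries, against 257, 221, 199, 244 and 154 CPM in PD1- libraries (2.13 ± 0.21, adjusted p = 6.34e-06). Gzmc was at 533, 568, 505, 330 and 648 CPM in PD1+ libraries, against 5.61, 2.94, 11.8, 0.432 and 20.6 CPM in PD1- libraries (5.98 ± 0.69, adjusted p = 2.32e-05). Gzmf was at 966, 805, 903, 689 and 882 CPM in PD1+ libraries, against 3.09, 1.19, 27.9, 2.09 and 55.0 CPM in PD1- libraries (5.79 ± 0.89, adjusted p = 0.000406).

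Gzmd was at 214, 220, 177, 197 and 205 CPM in PD1+ libraries, against 0, 0, 2.91, 0 and 13.4 CPM in PD1- libraries (6.34 ± 1.08, adjusted p = 0.00192). Gzme was at 118, 83.2, 123, 159 and 123 CPM in PD1+ libraries and had no count in any PD1- library, which makes it at least 2722-fold higher when the whole PD1- group is given 3 counts as a floor (adjusted p = 1.63e-09). Gzmg, also without a PD1- count, was at 28.5 to 47.8 CPM in PD1+ libraries and at least 815-fold higher (adjusted p = 2.45e-05). In the RefSeq gene order Gzme, Gzmd, Gzmg, Gzmn, Gzmf, Gzmc and Gzmb lie next to each other. The clustered granzyme genes are close copies, so the counting could split shared reads between them, and the values of single members are uncertain. Among the PD1- libraries, replicates 3 and 5 held most of what there was of Gzmc, Gzmd and Gzmf.

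Gzmb, at the end of the same cluster, did not rise with its neighbours. It was at 1156, 1087, 1065, 892 and 1760 CPM in PD1+ libraries, against 2149, 2286, 1945, 1541 and 1903 CPM in PD1- libraries, and fell by 0.72 on the log2 scale (SE 0.17, adjusted p = 0.0189). The groups overlapped through PD1+ replicate 5, and the call was kept without PD1+ replicate 5 or PD1- replicate 3, 4 or 5, and lost without any of the other 6 libraries (up to 0.0722, without PD1+ replicate 3). Gzma, the tryptase granzyme A, was at 12.2, 21.3, 18.1, 6.39 and 0.139 CPM in PD1+ libraries, against 641, 472, 500, 318 and 380 CPM in PD1- libraries (-5.65 ± 0.81, adjusted p = 0.000208). Gzmk, a granzyme of less differentiated effector cells, was at 140, 70.0, 102, 131 and 78.1 CPM in PD1+ libraries, against 794, 637, 534, 458 and 299 CPM in PD1- libraries (-2.31 ± 0.25, adjusted p = 1.33e-05). No PD1+ library reached a PD1- library for either gene. Fasl, the death receptor ligand, was not called (-0.60 ± 0.17, adjusted p = 0.0593), though it was without PD1- replicate 5 (0.00481) and by DESeq2 (0.0205).

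**Figure D3:**
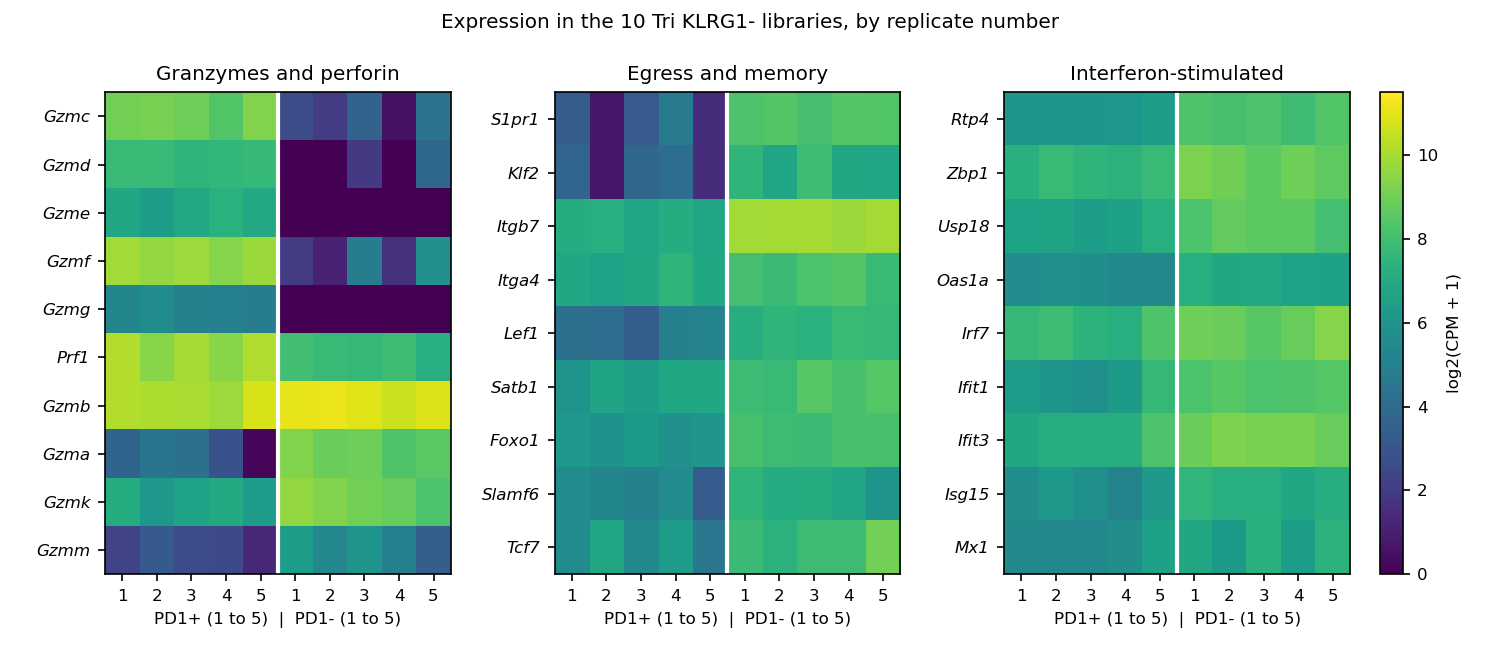
Colour gives log2(CPM + 1) in each of the 10 libraries, PD1+ replicates 1 to 5 left of PD1- replicates 1 to 5, for granzymes and perforin, egress and memory genes, and interferon-stimulated genes. Gzmc to Gzmg are bright in PD1+ and dark in PD1- libraries, Gzma and Gzmk the reverse, and Gzmb is bright in all 10.

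Of 17 cytokine genes tested, 1 rose and 1 fell, with a median of 0.65, where 1.72% of all genes tested rose and 1.91% fell. Spp1, which encodes osteopontin, was at 692, 372, 571, 283 and 314 CPM in PD1+ libraries, against 7.27, 4.29, 9.45, 3.67 and 33.7 CPM in PD1- libraries (5.28 ± 0.64, adjusted p = 3.25e-05). Ccl5, the chemokine RANTES of memory and effector CD8+ cells, was at 316, 179, 330, 221 and 162 CPM in PD1+ libraries, against 1904, 929, 1534, 842 and 394 CPM in PD1- libraries (-2.11 ± 0.28, adjusted p = 0.000101). Both were without overlap. Csf1, the macrophage growth factor, was at 146, 256, 214, 278 and 340 CPM in PD1+ libraries, against 5.40, 10.9, 0.0883, 12.6 and 93.8 CPM in PD1- libraries. It missed the threshold (adjusted p = 0.0731) and passed it without PD1- replicate 5, the highest of its group (0.0172), but also with that library in place by DESeq2 (0.0144), with a replicate block (0.0312) and with the 10 libraries alone (0.0172). Ifng, the main effector cytokine of these cells, was at 363, 433, 416, 267 and 310 CPM in PD1+ libraries, against 198, 136, 150, 105 and 510 CPM in PD1- libraries, and was not called (adjusted p = 0.53); without PD1- replicate 5 the adjusted p was 0.000338, and in the first name series alone 0.0025. Tnfsf11, which encodes RANKL, was at 85.2 to 153 CPM in PD1+ libraries and 0.182 to 17.9 CPM in PD1- libraries and was not called (3.15 ± 1.02, adjusted p = 0.108), although it was with the 10 libraries alone (0.0147) and by DESeq2 (0.0429).

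Among 19 cytokine receptors 1 rose and 1 fell. Il2rb, the chain shared by the IL-2 and IL-15 receptors, was at 2410, 2475, 2619, 2840 and 3197 CPM in PD1+ libraries, against 1165, 1293, 1040, 1075 and 1168 CPM in PD1- libraries (1.23 ± 0.15, adjusted p = 3.72e-05). Ifngr1, the ligand-binding chain of the interferon gamma receptor, fell by 0.76 on the log2 scale (SE 0.14, adjusted p = 0.00214). Of 14 NK-type receptors 2 rose: Klre1, at 145 to 269 CPM in PD1+ libraries and 71.9 to 133 CPM in PD1- libraries (1.19 ± 0.26, adjusted p = 0.0115), and Klrd1, which encodes CD94 (1.00 ± 0.26, adjusted p = 0.0346). The Klrd1 call was kept without PD1+ replicate 4 or PD1- replicate 1 or 5 and lost without any of the other 7 libraries (up to 0.104, without PD1- replicate 4). Neither gene was called with all 27 libraries (0.671 for Klre1 and 0.149 for Klrd1).

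The antigen-receptor apparatus moved in parts. Of 17 genes 2 rose and 4 fell, with a median of -0.32. Lat, the adaptor that assembles signalling complexes below the receptor, was at 324, 359, 308, 306 and 351 CPM in PD1+ libraries, against 683, 733, 777, 788 and 636 CPM in PD1- libraries (-1.13 ± 0.12, adjusted p = 8.99e-06). The receptor-proximal kinases Lck (-0.52 ± 0.11, adjusted p = 0.0104) and Fyn (-0.76 ± 0.17, adjusted p = 0.0122) and the phosphatase gene Ptprc, which encodes CD45 (-0.72 ± 0.14, adjusted p = 0.00321), fell too, each without overlap; Lck missed the threshold with all 27 libraries (0.0867). Cd3g, a chain of the receptor complex itself, was at 2849, 2017, 2901, 1925 and 2414 CPM in PD1+ libraries, against 1813, 1389, 1672, 1140 and 1373 CPM in PD1- libraries (0.72 ± 0.15, adjusted p = 0.00706). Cd8a rose by 0.51 ± 0.12 (adjusted p = 0.0143), a call lost without PD1+ replicate 3 (0.0558) or PD1- replicate 4 (0.0515).

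Of 20 feedback inhibitors 1 rose and 2 fell (median 0.33). Socs1, a suppressor of cytokine signalling, fell (-0.93 ± 0.23, adjusted p = 0.0222), as did Dgka, a diacylglycerol kinase that dampens receptor signalling (-0.74 ± 0.18, adjusted p = 0.0222). Ubash3b, the phosphatase STS-1, rose (1.09 ± 0.28, adjusted p = 0.0309). None of the 3 was called with all 27 libraries (0.074 to 0.413), and Ubash3b also missed the threshold with the 10 libraries alone (0.0515). Socs1 lost its call without PD1+ replicate 2 (0.0517), 3 (0.0740) or 5 (0.0661) or PD1- replicate 4 (0.0701), Dgka without PD1+ replicate 1 (0.0738), 3 (0.0728) or 4 (0.0759) or PD1- replicate 3 (0.0606) or 5 (0.0685), and Ubash3b in all fits that left out 1 library except those without PD1+ replicate 2 or 4 or PD1- replicate 5 (up to 0.0936). Of 14 immediate-early genes, Zfp36, which encodes the mRNA decay factor tristetraprolin, alone was called, downward (-1.37 ± 0.37, adjusted p = 0.0438), and kept that call only without PD1- replicate 5 (up to 0.114, without PD1+ replicate 1). The list median was 0.26.

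Of 21 glycolysis and hypoxia genes, 7 rose and none fell, 20 had a positive value and the median was 0.48. With all 27 libraries in the fit, 4 of these 7 were not called (0.0584 for Gapdh, 0.235 for Pkm, 0.268 for Bnip3 and 0.57 for Pgam1). Tpi1, triosephosphate isomerase, was at 1082, 836, 1053, 724 and 582 CPM in PD1+ libraries, against 577, 539, 486, 420 and 270 CPM in PD1- libraries (0.90 ± 0.14, adjusted p = 0.000412). Although its lowest PD1+ value was close to its highest PD1- value, the groups did not overlap. Pkm, pyruvate kinase, was at 1744 to 1973 CPM in PD1+ libraries and 1224 to 1537 CPM in PD1- libraries (0.45 ± 0.11, adjusted p = 0.0171), and lost its call without PD1+ replicate 1 (0.0580) or PD1- replicate 3 (0.0606) or 5 (0.0512). Gapdh (0.55 ± 0.14, adjusted p = 0.0308) and Pgam1 (0.48 ± 0.12, adjusted p = 0.0301), further glycolytic enzymes, overlapped between the groups and lost their calls in 6 and 5 of the 10 fits that left out 1 library (up to 0.108 and 0.106, both without PD1+ replicate 3). With the 10 libraries alone Pgam1 was not called (0.0563). Bnip3, a mitophagy receptor induced by hypoxia, rose by 2.07 ± 0.50 (adjusted p = 0.0213) but not without PD1+ replicate 1 (0.0548), 2 (0.0555) or 4 (0.0632) or PD1- replicate 1 (0.0514). Oxidative phosphorylation genes had a median of -0.06 over 20 members. Ndufa4, a subunit of the respiratory chain, was at 102, 69.2, 99.9, 49.2 and 64.8 CPM in PD1+ libraries, against 260, 171, 233, 131 and 235 CPM in PD1- libraries (-1.46 ± 0.22, adjusted p = 0.000394). Of the 20, 1 rose and 1 fell.

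The list of 30 genes of DNA replication and mitosis had a median of 0.07. Its count of calls was near the 3.63% called over all genes tested and is no result about cell cycle genes. Of the 30, 1 was called. That gene, Hmgb2, a chromatin protein abundant in dividing cells, fell in PD1+ cells, at 608, 520, 599, 413 and 472 CPM in PD1+ libraries, against 859, 686, 1031, 701 and 1093 CPM in PD1- libraries (-0.77 ± 0.17, adjusted p = 0.0113; 0.0855 with all 27 libraries). Nusap1, a spindle protein, did not overlap and was not called (1.17 ± 0.33, adjusted p = 0.0563), but it was with the 10 libraries alone (0.0292) and by DESeq2 (0.00894). None of 10 heat shock and none of 12 BCL2 family genes was called by edgeR or by DESeq2; 2 genes of each list had an unadjusted p under 0.05.

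Of 18 interferon-stimulated genes tested, 11 fell and none rose in the PD1+ cells, all 18 had a negative value, and the median was -1.23. Ifi44 alone had a higher mean CPM in PD1+ libraries (6.1 against 3.3). Rtp4, a chaperone induced by type I interferon, was at 66.6, 65.8, 67.2, 68.2 and 87.5 CPM in PD1+ libraries, against 319, 284, 307, 244 and 328 CPM in PD1- libraries (-2.05 ± 0.22, adjusted p = 8.99e-06). Usp18, the protease that removes ISG15 and restrains the interferon receptor, was at 101, 104, 87.2, 95.9 and 151 CPM in PD1+ libraries, against 305, 420, 391, 389 and 263 CPM in PD1- libraries (-1.71 ± 0.21, adjusted p = 3.64e-05). The PD1+ library with the highest value of both genes was replicate 5.

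Zbp1, a sensor of unusual nucleic acids, was at 158, 212, 183, 164 and 216 CPM in PD1+ libraries, against 598, 515, 389, 504 and 400 CPM in PD1- libraries (-1.36 ± 0.15, adjusted p = 1.9e-05). Oas1a, an oligoadenylate synthetase, was at 47.4, 53.9, 52.7, 42.8 and 39.9 CPM in PD1+ libraries, against 145, 118, 123, 102 and 93.8 CPM in PD1- libraries (-1.29 ± 0.18, adjusted p = 0.000119). Irf7, the factor that amplifies interferon production, was at 203, 235, 169, 153 and 317 CPM in PD1+ libraries, against 499, 468, 367, 455 and 677 CPM in PD1- libraries (-1.19 ± 0.18, adjusted p = 0.000377). None of the 3 genes overlapped, but Oas1a was not called with all 27 libraries (0.547). The antiviral genes Ifit1 (-1.84 ± 0.33, adjusted p = 0.00192) and Ifit3 (-1.71 ± 0.28, adjusted p = 0.000815) and the ubiquitin-like modifier Isg15 (-1.41 ± 0.31, adjusted p = 0.0112) fell as well.

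Interferon-stimulated genes typically carry a response element of repeated GAAA blocks near their start. The motif GAAANNGAAA (N any base; TTTCNNTTTC on the other strand) was searched in RefSeq promoter windows (build GRCm38.p6, 250 bases before to 50 bases after the start, 300 bases in all). It was present in 8 of the 12 listed genes with a window, and in 376 of 9425 tested genes with a window (3.99%). Of the 6 genes that fell and had a window, 4 held it, and Irf7 and Isg20 did not. These 4 windows are shown because their genes fell together; they are written 5′ to 3′ on the gene's strand, with the matches in capitals, and overlapping matches run together. They are, in order, chr5:120907476-120907775 (minus strand), chr19:34583279-34583578 (plus strand), chr19:34640639-34640938 (plus strand) and chr4:156200769-156201068 (minus strand). A match describes the letters and does not show that a factor is bound.
Oas1a: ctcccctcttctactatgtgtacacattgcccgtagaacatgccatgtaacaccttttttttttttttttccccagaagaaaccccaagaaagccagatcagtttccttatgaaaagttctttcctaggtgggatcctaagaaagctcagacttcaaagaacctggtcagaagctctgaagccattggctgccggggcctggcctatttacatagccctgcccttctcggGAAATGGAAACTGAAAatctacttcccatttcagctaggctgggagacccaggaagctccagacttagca
Ifit3: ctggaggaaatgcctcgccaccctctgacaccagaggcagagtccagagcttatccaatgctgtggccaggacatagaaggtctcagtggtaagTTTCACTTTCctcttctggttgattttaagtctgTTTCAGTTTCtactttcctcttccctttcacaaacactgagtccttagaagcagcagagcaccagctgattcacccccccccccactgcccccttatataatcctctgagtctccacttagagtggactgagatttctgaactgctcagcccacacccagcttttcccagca
Ifit1: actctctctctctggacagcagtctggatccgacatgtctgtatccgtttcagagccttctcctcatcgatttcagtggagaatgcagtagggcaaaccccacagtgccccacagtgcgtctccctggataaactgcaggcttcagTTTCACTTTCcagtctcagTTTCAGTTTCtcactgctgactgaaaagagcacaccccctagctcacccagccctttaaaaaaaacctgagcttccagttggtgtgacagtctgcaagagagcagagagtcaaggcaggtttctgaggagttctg
Isg15: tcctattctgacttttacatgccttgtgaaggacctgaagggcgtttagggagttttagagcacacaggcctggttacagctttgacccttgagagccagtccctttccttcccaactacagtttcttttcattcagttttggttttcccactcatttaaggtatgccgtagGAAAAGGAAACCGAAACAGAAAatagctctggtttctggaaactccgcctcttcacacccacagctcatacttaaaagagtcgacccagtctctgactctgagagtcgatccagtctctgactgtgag

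GIMAP genes are small GTPases of lymphocyte survival that lie in 1 cluster. Of 8 tested, 5 fell and all had a negative value, with a median of -0.70. Gimap6 was at 517, 523, 500, 526 and 614 CPM in PD1+ libraries, against 1039, 960, 946, 918 and 1008 CPM in PD1- libraries (-0.86 ± 0.10, adjusted p = 2.32e-05). Gimap4 was at 970 to 1288 CPM in PD1+ libraries and 1725 to 2338 CPM in PD1- libraries (-0.86 ± 0.12, adjusted p = 0.000116), and Gimap3 at 778 to 980 CPM in PD1+ libraries and 1274 to 1449 CPM in PD1- libraries (-0.63 ± 0.11, adjusted p = 0.00205). No library of 1 group reached the other in these 3 genes, whereas Gimap7 and Gimap9, which also fell, overlapped, and Gimap9 lost its call with all 27 libraries (0.091). Of 12 S100, annexin and galectin genes 3 rose (median 0.50). Anxa2, a calcium-dependent membrane-binding protein, was at 1751, 1494, 1808, 1318 and 1275 CPM in PD1+ libraries, against 798, 729, 805, 764 and 801 CPM in PD1- libraries (0.96 ± 0.11, adjusted p = 2.9e-05). S100a4, a calcium-binding protein of memory and effector T cells, rose by 1.19 ± 0.20 (adjusted p = 0.0012), and S100a11 by 0.81 ± 0.22 (adjusted p = 0.0482), the last of these calls being kept only without PD1+ replicate 2 or PD1- replicate 5 (up to 0.133, without PD1+ replicate 1; 0.1 with all 27 libraries).

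The largest increases were in genes without a single count in the PD1- libraries, 32 of the 228 that rose. Of the genes that fell, 3 had no count in any PD1+ library. How many of all genes tested lacked a PD1- count is not given here. A group without a count makes a fold change large of itself, so the place of these genes in the ranking is no finding. Those without a PD1- count passed the count filter only through other Tri libraries, and those named were picked by size. Their bounds and p-values therefore describe them and add no support. Besides Gzme and Gzmg, the 12 taken by size were Tff1, Ugt1a10, Scin, Zc3h12c, Pla2g4f, Sspo, Plxnd1, Jam2, Ripply3 and Mrc2. Tff1, a trefoil peptide known from gastric mucus, was at 33.2, 27.7, 39.3, 19.2 and 39.3 CPM in PD1+ libraries and at least 730-fold higher (adjusted p = 0.000128). Scin, an actin-severing protein, was at 34.0, 15.5, 23.8, 13 and 17.0 CPM in PD1+ libraries and at least 495-fold higher (adjusted p = 0.0042). Jam2, a junctional adhesion molecule, was at 16.8, 20.9, 16.3, 6.39 and 9.88 CPM and at least 332-fold higher (adjusted p = 0.000631). The calls of Ugt1a10 and Mrc2 ended in each of the 10 fits that left out 1 library (up to 0.0756 and 0.0829, both without PD1- replicate 1), that of Ripply3 in all but the fit without PD1+ replicate 5 (up to 0.0763) and that of Pla2g4f in all but those without PD1+ replicate 4 or 5 or PD1- replicate 5 (up to 0.0658). With all 27 libraries Ugt1a10 (0.0615) and Mrc2 (0.0705) were not called. With a replicate block Mrc2 (0.101) and Ripply3 (0.0613) were not called. Ugt1a10 shares its last exons with the other Ugt1a genes, so its count cannot be assigned to it with certainty.

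The largest decreases by size included Cd163l1, Dtx1, Vipr1, Gzma, Fcgrt, S1pr1, Art2b, Itgax, Klf2, Klf3 and Ccr2. Dtx1, a regulator of Notch signalling, was at 1.21, 0, 0.869, 1.45 and 0.417 CPM in PD1+ libraries, against 39.5, 57.4, 80.8, 72.1 and 52.3 CPM in PD1- libraries (-6.25 ± 1.36, adjusted p = 0.00967). Itgax, the integrin chain CD11c, was at 8.95, 11.7, 6.77, 12.6 and 3.20 CPM in PD1+ libraries, against 235, 185, 268, 178 and 138 CPM in PD1- libraries (-4.53 ± 0.62, adjusted p = 0.000134). The groups did not overlap in either gene, as the rule that named them required. Cd163l1, a scavenger receptor of the WC1 type, was detected in 1 of 5 PD1+ libraries, at 0.497 CPM, and lay between 1.41 and 36.7 CPM in PD1- libraries. Vipr1, a receptor for vasoactive intestinal peptide, fell (-6.07 ± 1.50, adjusted p = 0.0344) and kept the call only without PD1+ replicate 5 or PD1- replicate 3 (up to 0.0820, without PD1+ replicate 3). Fcgrt, the neonatal Fc receptor, kept its call without PD1+ replicate 2 or PD1- replicate 2, 3 or 5 and lost it otherwise (up to 0.0751, without PD1+ replicate 1), and Art2b, an ADP-ribosyltransferase of T cells, kept it only without PD1+ replicate 1 (up to 0.0935, without PD1+ replicate 5). All 27 libraries together gave 0.0543 for Vipr1 and 0.114 for Art2b. For Art2b the 10 libraries alone gave 0.0622 and a replicate block 0.076.

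The same contrast could be made in cells that carry KLRG1, with 5 Tri PD1+KLRG1+ and 4 Tri PD1-KLRG1+ libraries. These were not among the libraries compared above, but all Tri libraries were fitted in the same model. Both contrasts thus used the same estimates of spread and the same name-series term. The labels also do not say whether equal replicate numbers share a mouse. The overlap between the gates is therefore no independent replication. In KLRG1+ cells 399 of 13288 genes were called (3%), 194 higher (1.46%) and 205 lower (1.54%) in PD1+ cells. Both gates had 125 genes higher, which is 54.8% of the risers in KLRG1- cells and 64.4% of those in KLRG1+ cells, and 123 lower (48.4% and 60.0%); none was called in opposite directions. Of the 482 genes called in KLRG1- cells, 473 had the same sign in KLRG1+ cells. Over all genes the fold changes of the gates correlated with r = 0.407 (Spearman 0.39), and over the 4450 genes whose mean was 50 CPM or more with r = 0.779 (Spearman 0.612), described across genes, which are not independent replicates. By edgeR the difference between the gates, tested as an interaction, was called for 0 genes, with 641 at an unadjusted p under 0.05; DESeq2 called 321 and edgeR without a count filter 62.

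**Figure D4:**
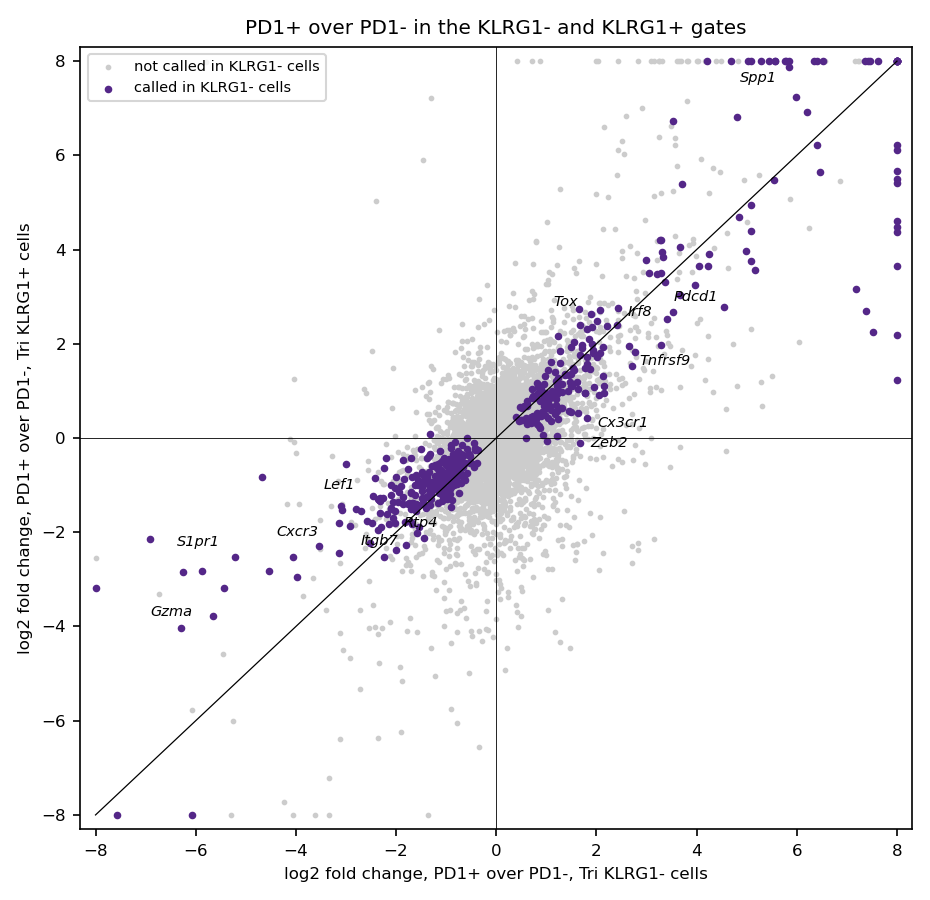
Log2 fold change of PD1+ over PD1- in Tri KLRG1- cells (x) and Tri KLRG1+ cells (y), for genes that averaged 10 CPM or more in either KLRG1- group; values beyond 8 in size are drawn at the edge, purple marks genes called in KLRG1- cells and the line is equality. Most purple points lie in the lower left and upper right quadrants.

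Lef1, S1pr1 and Cxcr3 had larger decreases in KLRG1- than in KLRG1+ cells, but none of these differences passed correction. Lef1 was at 22.0 ± 10.2 CPM in PD1+ and 183 ± 30.7 CPM in PD1- KLRG1- cells (SD, n = 5 each), against 60.7 ± 21.0 CPM in PD1+ (n = 5) and 165 ± 54.4 CPM in PD1- (n = 4) KLRG1+ cells. Its log2 fold change was -3.10 in KLRG1- and -1.44 in KLRG1+ cells, a difference of -1.66 ± 0.44 (unadjusted p = 0.00131, adjusted p = 0.627, edgeR). S1pr1 differed by -2.70 ± 0.96 (unadjusted p = 0.0111, adjusted p = 0.811) and Cxcr3 by -1.33 ± 0.46 (unadjusted p = 0.00886, adjusted p = 0.785). For Pdcd1 itself the log2 fold change was 3.36 in KLRG1- and 3.31 in KLRG1+ cells, with a difference of 0.05 ± 0.42. Spp1 had the opposite tendency to Lef1, 5.28 in KLRG1- and 10.56 in KLRG1+ cells. Its PD1- level was 11.7 ± 12.5 CPM in KLRG1- and 0.175 ± 0.350 CPM in KLRG1+ libraries, and the difference of -5.29 ± 1.08 had an unadjusted p of 8.88e-05 (adjusted p = 0.401).

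Markers of other cell types were checked as lists, and 3 of 5 summed levels differed between the groups (2-sided exact permutation p = 0.00794, the smallest that 5 against 5 libraries allow; Benjamini-Hochberg p = 0.0265 over 10 library measures). B cell markers summed to 6.75 to 79.7 CPM in PD1+ libraries and 218 to 324 CPM in PD1- libraries, nearly all of it Ighm, the immunoglobulin mu chain gene, which fell (-2.42 ± 0.54, adjusted p = 0.0125). Of the 8 B cell markers, Pax5 and Blk had no count in any of the 10 libraries, and Ms4a1 had at most 1. CD4 and regulatory T cell markers summed to 67.8 to 155 CPM in PD1+ libraries and 13.1 to 47.2 CPM in PD1- libraries. Of these 6, Ikzf4, the gene of Eos, alone was called, at 85.7, 142, 105, 129 and 58.5 CPM in PD1+ libraries, against 0.576, 4.85, 0.0883, 15.9 and 0 CPM in PD1- libraries (adjusted p = 0.0308; kept only without PD1+ replicate 5 or PD1- replicate 4 or 5, up to 0.0888 without PD1- replicate 1, and 0.0775 with all 27 libraries). Cd4 reached at most 1.99 CPM in any of the libraries, and Foxp3 44.0 CPM in 1 PD1- library. In bulk samples fewer cells of a type and less RNA per cell cannot be told apart.

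Tumour and stromal markers summed to 17.2 to 35.2 CPM in PD1+ libraries and 36.7 to 92.7 CPM in PD1- libraries. Krt8 and Krt19 were at 0 in all 10. None of 6 tested members was called by edgeR or by DESeq2, or had an unadjusted p under 0.05. Pecam1 had the highest level of the list, at up to 21.8 CPM in PD1+ and 55.2 CPM in PD1- libraries. Sparc came next in PD1- libraries, at up to 20.9 CPM. Whether the sum reflects tumour cells was not tested. Myeloid markers summed to 499.9 to 1043 CPM in PD1+ libraries and 355 to 800.2 CPM in PD1- libraries (exact permutation p = 0.0794), with Cst3, the protease inhibitor cystatin C, called higher (1.06 ± 0.21, adjusted p = 0.00433; 0.0629 with all 27 libraries) and Cd74, the MHC class II chaperone, the other large part of the sum. Cd74 was not called, but it was without PD1- replicate 5 (1.99, adjusted p = 0.00215, edgeR) and by DESeq2 (0.0331). The defining myeloid genes C1qa, C1qb, C1qc, Csf1r and Cd14 were not called. Of 14 myeloid markers tested, 7 had a positive and 7 a negative value, with a median of 0.12. The highest levels of C1qa, C1qb and C1qc were 12.4, 27.9 and 21.7 CPM in PD1+ libraries. In PD1- libraries they were 26.0, 48.3 and 71.6 CPM. NK and innate-like markers summed to 16.9 to 109.8 CPM in PD1+ libraries and 22.4 to 34.3 CPM in PD1- libraries (exact permutation p = 0.0556). There Fcer1g, the common Fc receptor gamma chain, rose (2.21 ± 0.51, adjusted p = 0.0145), except without PD1+ replicate 3 (0.0502) or PD1- replicate 1 (0.0512), 2 (0.0520) or 3 (0.0529) or with all 27 libraries (0.073). Of the 3 NK and innate-like markers tested, Fcer1g alone had a positive value, and the list median was -2.203. Klrb1c and Trdc had negative values and their highest levels in PD1- libraries. The higher PD1+ values of the sum thus rested on Fcer1g, at up to 99.8 CPM in PD1+ and 18.8 CPM in PD1- libraries. Ncr1, Il23r and Klra8 had no count in any library. Whether these transcripts bear on the gene groups above was not tested. Library total, genes at equal depth, mitochondrial and ribosomal shares did not differ past the threshold (exact permutation p of 0.127 to 0.683).

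**Figure D5:**
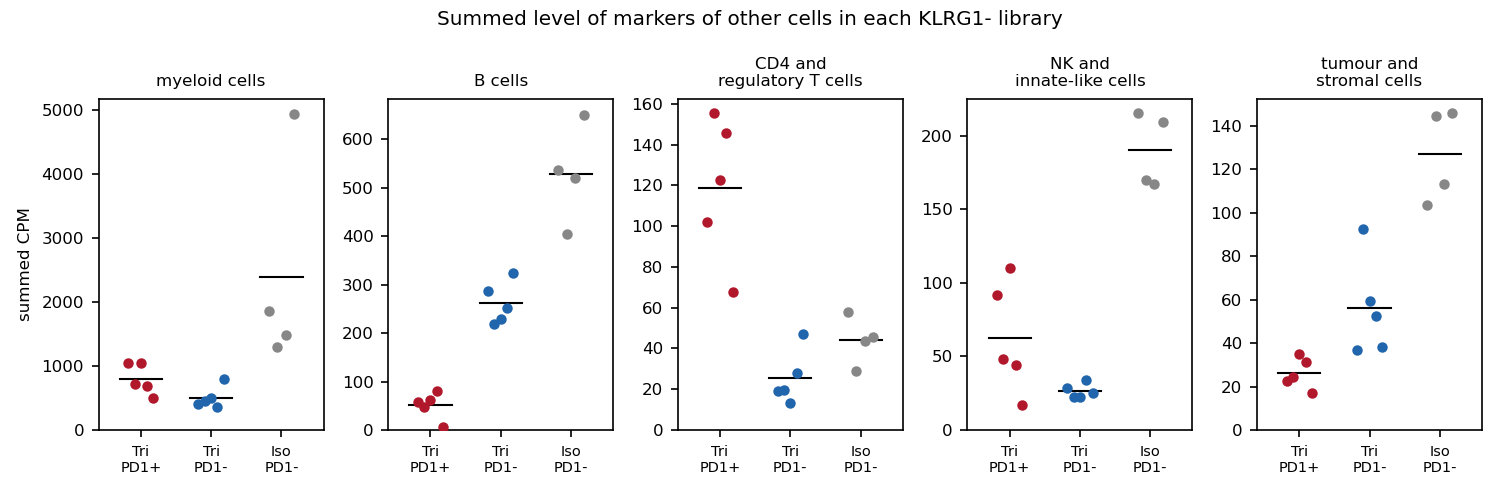
Summed CPM of markers of 5 other cell classes in each KLRG1- library, PD1+ Tri in red, PD1- Tri in blue and Iso PD1- in grey, with bars at the group means. B cell and tumour sums are lower and the CD4 and regulatory T cell sum higher in every PD1+ than in every PD1- Tri library.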

How the data were processed

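The deposited table held raw counts per mouse gene for 27 bulk RNA-seq libraries, with no normalisation by the authors, per the file header and its whole-number values. It listed 47729 Ensembl IDs, of which 47224 were given symbols from GENCODE M21. DESeq2 1.26.0 is named in the submitters' processing notes without a role; of the aligner, counter and genome build the sources used here say nothing. Columns were matched to samples through their descriptions, and none was left unmatched.

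Counts of the 19 Tri libraries were fitted with edgeR 4.0.16 (R 4.3.3) as a robust quasi-likelihood model with a mean per gate and a term for the name series. Genes passed filterByExpr at a minimum count of 10, TMM factors came from the 23 libraries other than Iso PD1-KLRG1+ (not analysed further here because they hold few genes), and p-values were adjusted by Benjamini-Hochberg over all 13288 genes. SE is the log2 fold change over the root of its F statistic. Where a group had no count, a fold is a bound against 3 counts over the group, which covers counting error only. For library measures, 2-sided exact permutation tests over all assignments were used. The procedure was tested on simulated counts with known changes.

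A rule chose the genes named: sort genes and given markers, per direction the 12 called, non-overlapping genes with the largest change and 10 CPM or more in the higher group (without receptor segments and model names), and members of 28 lists (388 of 389 members found), up to 5 per list or any member of the leading lists. A few genes outside it (Ifit1, Ifit3, Isg15 and those in the closing observations) were added after their values were seen; some members and genes the rule picked are not reported here. The comparison, lists and rule were chosen with earlier results of these data known. Alternatives were RLE scaling, no count filter, a minimum count of 50, each name series alone, no term for it, a replicate block, DESeq2 1.42.0, limma-voom 3.58.1 with a random block, all 27 libraries, only the 10 libraries compared and leaving out each library. Alternatives chosen after seeing the data were a minimum mean of 50 CPM, leaving out the 5 Tri PD1+KLRG1+ libraries, and the 10 libraries less PD1- replicate 5. Promoter windows are from RefSeq. Figures were drawn with matplotlib 3.10.9.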

Additional observations from a re-analysis of the deposited data

Results flagged for a closer look

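Within the groups of 5, 1 library lay far from the other 4 in 25 of the 260 sets of values examined (the gap to the nearest library over the group's range was above Dixon's 95% value); chance flags about 1 set in 20. Most of these were replicate 5 of the PD1- libraries. Its share of well-expressed genes without a count, 3.62%, was the highest and its mean correlation with its group, 0.756, the lowest. It held the highest PD1- value of Nr4a2 (211 CPM), Rgs16 (203 CPM), Ifng (510 CPM), Csf1 (93.8 CPM), Itgae (138 CPM), Cd244a (73.9 CPM), Lag3 (19.5 CPM), Zeb2 (24.3 CPM), Ubash3b (180 CPM), Spp1 (33.7 CPM), Gzmd (13.4 CPM), Tcf7 (528 CPM) and Fyn (765 CPM), and the lowest of Bnip3 (3.93 CPM).

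Other PD1- libraries stood apart in Tnfrsf9 (160 CPM, the lowest, replicate 3), Cd200r1 (18 CPM) and Ccr7 (122 CPM, both highest in replicate 3) and Cxcr3 (736 CPM, the highest, replicate 1). Among PD1+ libraries, replicate 5 was highest in Rtp4 (87.5 CPM), Usp18 (151 CPM) and Gimap6 (614 CPM), replicate 4 in Itga4 (185 CPM), and replicate 3 was the only library with counts of Cd163l1 (0.497 CPM).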

How the results depend on the processing

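The count of 482 genes called in KLRG1- cells was within 1.5 times with RLE scaling, no count filter, a replicate block (457), no name-series term, a minimum count of 50 or a minimum mean of 50 CPM. It was 1087 with DESeq2, 781 with limma-voom, 219 with all 27 libraries, 800 with the 10 libraries alone (460 of the 482 among them), 1182 with these less PD1- replicate 5, 770 without the 5 Tri PD1+KLRG1+ libraries, 175 in name series 1 and 12 in name series 2; the cause was not tested. Leaving out 1 library gave 327 (without PD1+ replicate 1) to 451. The interaction went from 0 genes to 62 with no count filter, 321 with DESeq2 and 0 to 3 when 1 library was left out. Replicate numbers were not taken to pair the libraries: same-number correlations were 0.0446 to 0.454, and 6 of 10 libraries correlated best with their own number; with the block and the 10 libraries alone 696 genes were called.

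Of 98 named genes that were called, 73 kept the call whichever library was left out (75 to 91 in single such fits). All 98 kept it with RLE scaling, a minimum count of 50, DESeq2 and without the 5 Tri PD1+KLRG1+ libraries, and 91 to 95 with no count filter, no name-series term, limma-voom, a replicate block, the 10 libraries alone and these less PD1- replicate 5. Fewer kept it with the 10 libraries and the block (84), all 27 libraries (64), name series 1 (56) and name series 2 (3). None of the 98 called genes changed sign in any alternative run. Of 27 named genes not called, 22 were called in 1 or more alternatives. Of the uncalled, Nr4a1 turned to 0.0925 in name series 1, and Ccr7 to -0.28 and Ifng to -0.0933 in name series 2. When 1 library was left out, the PD1+ minus PD1- difference in summed CPM ran from -221.8 to -195 for B cell markers, 84.2 to 106 for CD4 and regulatory T cell markers and -34.7 to -20.7 for tumour and stromal markers. Their exact permutation p was 0.0159 in every such fit, the smallest that the remaining libraries allow. Their adjusted p was 0.0529 except without PD1+ replicate 5 (0.0397). These adjusted values were set by the number of libraries and of measures at that floor. They cannot show dependence on a single library. For NK and innate-like markers the difference was 23.8 to 47.1, with an adjusted p of 0.0397 without PD1+ replicate 5. The percentage of well-expressed genes without a count ran from -0.898 (without PD1- replicate 1) to 0.0028 (without PD1- replicate 5) as a PD1+ minus PD1- difference. Depth limits genes at or near 0 counts in a group, whose bounds rest on 3 counts.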

Other observations

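Genes outside the lists were taken as the 12 with the smallest p in each direction that no list and no other part of the rule had named. Igtp, an interferon-inducible GTPase that fell, was at 219 to 287 CPM in PD1+ libraries and 668 to 933 CPM in PD1- libraries (-1.75 ± 0.19, adjusted p = 1.34e-05, edgeR). Tgtp1 (-3.07 ± 0.34) and Tgtp2 (-1.61 ± 0.17), T cell GTPases of the same family that are near-identical copies, fell too, so their split is uncertain. Epsti1, another interferon-induced gene, fell by 1.86 on the log2 scale (SE 0.21), and Slfn1, a schlafen gene of resting T cells, by 1.66 (SE 0.20). Ly6c2, a surface protein of memory and effector CD8+ cells, was at 752, 516, 688, 476 and 1074 CPM in PD1+ libraries, against 4715, 3360, 4359, 2363 and 3156 CPM in PD1- libraries (-2.33 ± 0.25, adjusted p = 9.16e-06). None of these genes overlapped between the groups, which adds nothing, as they were taken by their small p in the same libraries.

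Among the genes that rose, Lat2, an adaptor related to the Lat gene that fell, was at 272, 276, 261, 234 and 234 CPM in PD1+ libraries, against 11.7, 15.3, 8.92, 13.5 and 5.33 CPM in PD1- libraries (4.55 ± 0.32, adjusted p = 3.45e-08). Adgrg1, the adhesion receptor GPR56 of cytotoxic lymphocytes, was at 203 to 350 CPM in PD1+ libraries and 6.04 to 39.9 CPM in PD1- libraries (3.67 ± 0.50, adjusted p = 0.000119). Mt1, a metallothionein, rose by 3.20 ± 0.38 (adjusted p = 3.15e-05), and Samsn1, an adaptor that restrains lymphocyte activation, by 1.56 ± 0.18 (adjusted p = 2.54e-05). Serpina3g, a serine protease inhibitor of activated T cells, rose by 1.50 ± 0.16 (adjusted p = 8.99e-06). Osbpl3, an oxysterol-binding protein, rose in KLRG1- cells (1.21 ± 0.17, adjusted p = 0.000123) and had a log2 fold change of 0.05 in KLRG1+ cells; the difference of 1.16 had an unadjusted p of 9.46e-05 and an adjusted p of 0.401.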
